A study of Homo sapiens with 9 samples.

Results

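The transcripts of the FOS and JUN families were followed in 9 RNA-seq libraries of GIST-T1, an established human line of gastrointestinal stromal tumour (GIST) cells. The members were FOS, FOSB, FOSL1, FOSL2, JUN, JUNB and JUND, taken by symbol, 7 of the 23610 entries of a table of FPKM, fragments per transcript length and sequencing depth. The set was chosen by its members' measured differences between these same groups, mainly those of FOS and JUN. Every difference of a member, and every limma call of one, is therefore given as a description only. Per the labels, each group had 3 libraries, and the sgRNA was directed at ETV1 in the first group, at HAND1 in the second and at Luciferase, the control, in the third. All 9 come from this 1 cell line and its polyA RNA. ETV1 is an ETS family transcription factor and HAND1 a basic helix-loop-helix factor. The labels do not say whether libraries of a group are separate cultures, so the spread between them may be technical. The form of Cas9, the guide sequences, the time after delivery and the state of the cells at harvest are not stated in the labels. A bulk library cannot tell a change in all cells from a larger one in part of them.

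FOS and JUN proteins are basic leucine zipper factors that bind DNA as pairs, together called AP-1. JUN proteins can pair with each other and with FOS proteins, whereas FOS proteins need a JUN-type partner. FOS, FOSB, JUN and JUNB are immediate early genes, transcribed within minutes of a growth signal and copied into short-lived mRNA, while JUND is expressed more constantly. In GIST, KIT or PDGFRA signalling drives the ERK pathway, which acts on FOS through ETS-type cofactors of serum response factor, and ETV1 protein is itself stabilised by that pathway.

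The windows around the start sites of 4 members are shown because these are the members that differed most between the groups. They run from 150 bases before the start to 50 after it, 5′ to 3′ on the gene's strand, from RefSeq on GRCh38.p14: chr14:75278678-75278877 (plus strand) for FOS, chr2:28392708-28392907 (plus) for FOSL2, chr1:58783998-58784197 (minus) for JUN and chr19:12791336-12791535 (plus) for JUNB. The FPKM values rest on the hg19 build and no value was taken by position. Capitals mark TGACG, which opens the cAMP response element, the TATA box TATAAA, the CCAAT box, the JUN-type AP-1 site TGACATCA, and the AP-1 site proper, TGACTCA or its reverse complement. All were searched on both strands.
FOS: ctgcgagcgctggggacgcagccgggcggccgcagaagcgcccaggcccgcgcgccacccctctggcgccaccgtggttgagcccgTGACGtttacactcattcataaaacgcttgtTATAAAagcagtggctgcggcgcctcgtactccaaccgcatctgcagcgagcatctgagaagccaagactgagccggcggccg
FOSL2: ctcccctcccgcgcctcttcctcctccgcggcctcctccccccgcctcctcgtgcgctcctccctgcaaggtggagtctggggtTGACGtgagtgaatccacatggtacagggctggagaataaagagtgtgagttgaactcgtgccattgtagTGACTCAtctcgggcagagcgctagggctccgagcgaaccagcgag
JUN: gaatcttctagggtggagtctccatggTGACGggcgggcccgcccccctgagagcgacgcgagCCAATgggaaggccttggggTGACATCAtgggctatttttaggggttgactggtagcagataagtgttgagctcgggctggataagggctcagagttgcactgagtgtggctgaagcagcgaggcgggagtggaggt
JUNB: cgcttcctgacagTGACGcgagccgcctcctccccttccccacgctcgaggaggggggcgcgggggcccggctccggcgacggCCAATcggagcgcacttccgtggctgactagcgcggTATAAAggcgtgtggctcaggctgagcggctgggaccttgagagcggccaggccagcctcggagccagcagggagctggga

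Windows of 300 bases were found for 6 of the 7 members, all but FOSL1. All 6 held TGACG, which 24.6% of 35116 promoter windows of the same length hold. In FOS it began 64 bases before the start, in FOSB 60, in FOSL2 66, in JUN 123 and in JUNB 137. FOSL2 also held it on the opposite strand, 201 bases before the start, and JUND likewise at 86. JUND held the full element TGACGTCA, of which TGACG is a part, 200 bases before its start (1.85% of windows hold it). TATAAA stood in FOS, FOSB and JUNB, beginning 33, 30 and 31 bases before the start (11.5% of windows), and CCAAT in JUN, JUNB and JUND (34.6%). JUN alone held TGACATCA (2.61% of windows), 67 bases before its start. FOSL2 alone held the AP-1 site, just after its start (4.95% of windows). The ETS core CCGGAA stood in FOSB, 205 bases before its start (17.2% of windows). A CArG box, the core of the serum response element, was in 0 of the 6 windows and in 1.29% of all windows. EGR1, an immediate early zinc finger factor, held 2 CArG boxes, and TGACG at 2 places as well. These are matches of letters in a short window and say nothing of sites outside it.

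The targeted transcripts went with the labels: mean ETV1 was 39.7 FPKM in the control (SD 2.42, n = 3) and 11.4 with its sgRNA (SD 0.571), and mean HAND1 was 114 and 38.3 FPKM. The 10 GIST markers looked for, KIT and ANO1 among them, had means between 5.88 FPKM (PRKCQ) and 1659 FPKM (CD34). With HAND1 sgRNA limma called 4 of the 10 lower, KIT, GPR20, PRKCQ and the targeted HAND1 itself, beside 2.93% of all 11348 genes tested. With ETV1 sgRNA it called ETV1 lower (0.0617% of all genes) and PDGFRA higher (0.141%). PDGFRA was at 15.54 FPKM in the control, 20.53 with ETV1 sgRNA and 16.24 with HAND1 sgRNA. Between the sgRNAs 5 markers were called lower with HAND1 sgRNA, KIT, GPR20, PRKCQ, PDGFRA and HAND1 (2.04% of all genes), and ETV1 higher (2.01%). The part of KIT and PDGFRA in the FOS and JUN levels was not tested. Means were below 1 FPKM for 11 of 12 blood and endothelial, 9 of 10 neuronal and glial and 8 of 12 epithelial markers, with KRT14, KRT19, KRT20 and HBA1 at 0 in every library. The other epithelial markers were KRT18, at a mean of 225.3 FPKM, KRT8 (3.273), MUC1 (2.495) and CDX2 (1.061). Absolute depth is unknown. Relative depth, read from what 1 read is worth among low values, ran from 0.637 to 0.953 of Luciferase sgRNA replicate 1. Luciferase sgRNA replicate 3 stood apart: short transcripts (below 1000 nt, 285 genes) had a median 0.49 (log2) over the rest of its group, and ribosomal protein genes took 12.2% of its summed FPKM against 8.51% to 9.63% in the other 8. The longest annotated transcripts of the members run from 1669 to 6708 nt, above that size class.

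JUND was the most abundant member in every group, and FOSB and FOSL1 the least. With Luciferase sgRNA the order of mean levels was JUND at 71.0 FPKM, JUNB at 19.7, JUN at 10.9, FOSL2 at 2.51, FOS at 2.18, FOSL1 at 0.798 and FOSB at 0.321. Neighbours in that order did not overlap in their 3 libraries, except FOSL2 and FOS. With ETV1 sgRNA, FOS moved up past FOSL2 to a range that overlapped JUN. With HAND1 sgRNA, JUN stood above JUNB and FOSL2 above FOS, in both cases without overlap. The 3 JUN family transcripts made up most of the summed level of the members in each library, and JUND alone took 54.2% to 71.5% of it.

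**Figure D1:**
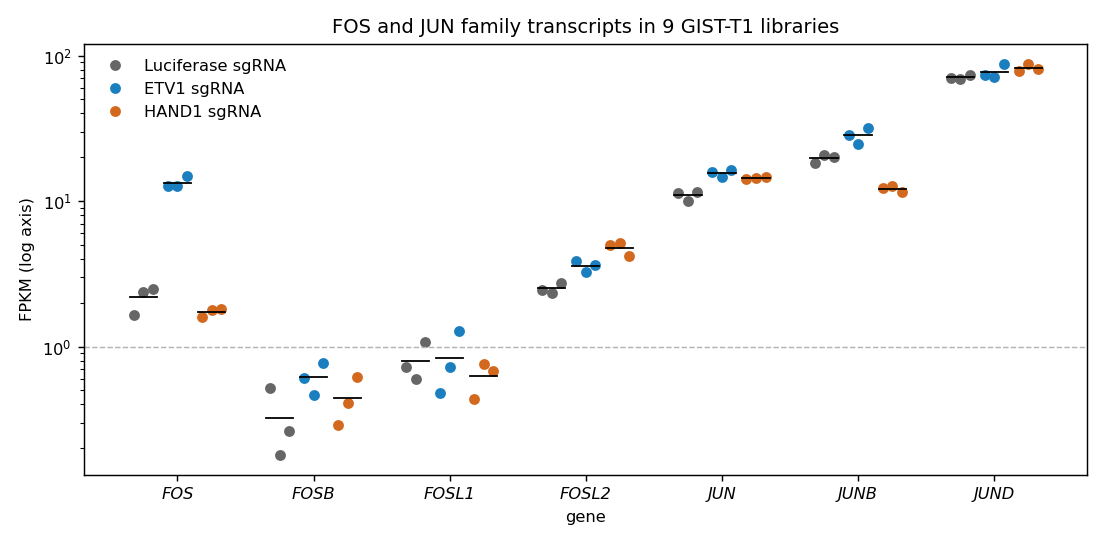
FPKM of the 7 members (log axis) in each of the 9 libraries, by group. Points are libraries in the order of their replicate numbers, black bars are means of 3, and the dashed line marks 1 FPKM. FOS stands at 12.6 FPKM or more in the 3 ETV1 sgRNA libraries and at 2.498 or less in the other 6, and JUNB is lowest with HAND1 sgRNA.

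FOS, the founding member of its family and a partner of the JUN proteins, was at 1.65, 2.38 and 2.498 FPKM in Luciferase sgRNA replicates 1, 2 and 3. It was at 12.7, 12.6 and 14.8 FPKM with ETV1 sgRNA and at 1.61, 1.78 and 1.80 with HAND1 sgRNA. All ETV1 sgRNA libraries lay far above the other 6, and the HAND1 sgRNA values overlapped the control through Luciferase sgRNA replicate 1. The mean ratio to the control was 6.15 with ETV1 sgRNA and 0.795 with HAND1 sgRNA. As log2(FPKM + 1), a scale on which low genes change less than their ratio, the differences were 2.19 (SE 0.118) and -0.21 (SE 0.118). The first was the largest positive difference of the 11348 genes tested, those with a mean of at least 1 FPKM. Without Luciferase sgRNA replicate 1 the difference with HAND1 sgRNA was -0.33, and without replicate 3 it was -0.13. HAND1 sgRNA minus ETV1 sgRNA was -2.40 (SE 0.118), rank 3 from the lowest of all genes tested.

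FOSL2, also called FRA2, lacks the strong activation domain of FOS. It was at 2.46, 2.33 and 2.74 FPKM with Luciferase sgRNA, at 3.89, 3.25 and 3.62 with ETV1 sgRNA and at 4.96, 5.16 and 4.16 with HAND1 sgRNA. No group overlapped another, and HAND1 sgRNA was highest. The differences from the control were 0.38 (log2, SE 0.102) with ETV1 sgRNA and 0.71 (SE 0.102) with HAND1 sgRNA, ratios of 1.43 and 1.90. FOSL2 was thus highest in the group where mean FOS was lowest. The 2 transcripts were near parity in the control, where FOS over FOSL2 was 0.671, 1.02 and 0.913. That ratio was 3.27, 3.90 and 4.09 with ETV1 sgRNA and 0.324, 0.346 and 0.433 with HAND1 sgRNA.

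FOSB and FOSL1 (FRA1) were at or near the floor. FOSB lay between 0.179 and 0.522 FPKM with Luciferase sgRNA, between 0.465 and 0.771 with ETV1 sgRNA and between 0.289 and 0.620 with HAND1 sgRNA. FOSL1, which in many epithelial tumours is an abundant ERK-driven subunit, lay between 0.599 and 1.07, 0.482 and 1.28, and 0.434 and 0.759 FPKM in the same order. The groups overlapped for both genes in every comparison, and neither reached the mean of 1 FPKM needed for the fit. ERCC1, a DNA repair gene on the opposite strand, overlaps FOSB in the GENCODE annotation and was at 61.9 to 85.8 FPKM. The libraries do not keep strand, so the FOSB values are uncertain.

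As a family, the 4 FOS transcripts summed to 5.35, 5.49 and 6.57 FPKM with Luciferase sgRNA. The sum was 17.7, 17.1 and 20.5 FPKM with ETV1 sgRNA and 7.29, 8.11 and 7.27 with HAND1 sgRNA. FOS itself made up 30.8% to 43.4% of the family sum in the control, 71.9% to 74.1% with ETV1 sgRNA and 22.0% to 24.8% with HAND1 sgRNA. FOSL2 made up 57.3% to 68.0% with HAND1 sgRNA, against 41.7% to 45.9% in the control. The sum was thus higher than the control with both sgRNAs, through FOS with one and FOSL2 with the other.

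JUN, the subunit that the JNK kinases phosphorylate and that can drive its own promoter, was at 11.3, 10.04 and 11.5 FPKM with Luciferase sgRNA. It was at 15.9, 14.7 and 16.4 FPKM with ETV1 sgRNA and at 14.1, 14.3 and 14.5 with HAND1 sgRNA. Both sgRNA groups lay above all control libraries, and ETV1 sgRNA above HAND1 sgRNA by a narrow gap. The differences from the control were 0.48 (log2, SE 0.068) and 0.36 (SE 0.068), and HAND1 sgRNA minus ETV1 sgRNA was -0.12 (SE 0.068).

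JUNB, a weaker activator than JUN that can oppose it at some promoters, was at 18.4, 20.7 and 20.1 FPKM with Luciferase sgRNA. It was at 28.3, 24.5 and 31.9 FPKM with ETV1 sgRNA and at 12.3, 12.7 and 11.5 with HAND1 sgRNA. The 3 groups did not overlap, with the control in the middle. The differences from the control were 0.49 (log2, SE 0.091) with ETV1 sgRNA and -0.65 (SE 0.091) with HAND1 sgRNA, and HAND1 sgRNA minus ETV1 sgRNA was -1.14 (SE 0.091), a ratio of 0.431. JUNB over JUN was 1.63, 2.06 and 1.75 in the control and 1.79, 1.66 and 1.95 with ETV1 sgRNA. It was 0.869, 0.886 and 0.795 with HAND1 sgRNA, below every other library. HOOK2, on the opposite strand, overlaps JUNB in the annotation and was at 2.61 to 4.21 FPKM in the 9 libraries, well under the JUNB level in each.

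JUND, which is the least inducible JUN gene, was at 70.1, 69.0 and 74.0 FPKM with Luciferase sgRNA. It was at 73.2, 71.4 and 87.7 FPKM with ETV1 sgRNA and at 78.3, 88.0 and 80.3 with HAND1 sgRNA. ETV1 sgRNA overlapped the control and HAND1 sgRNA lay just above it. The differences were 0.12 (log2, SE 0.080) and 0.21 (SE 0.080), and the first was 0.03 without ETV1 sgRNA replicate 3. The JUN family summed to 99.7 to 106 FPKM in the control, 111 to 136 with ETV1 sgRNA and 105 to 115 with HAND1 sgRNA.

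**Figure D2:**
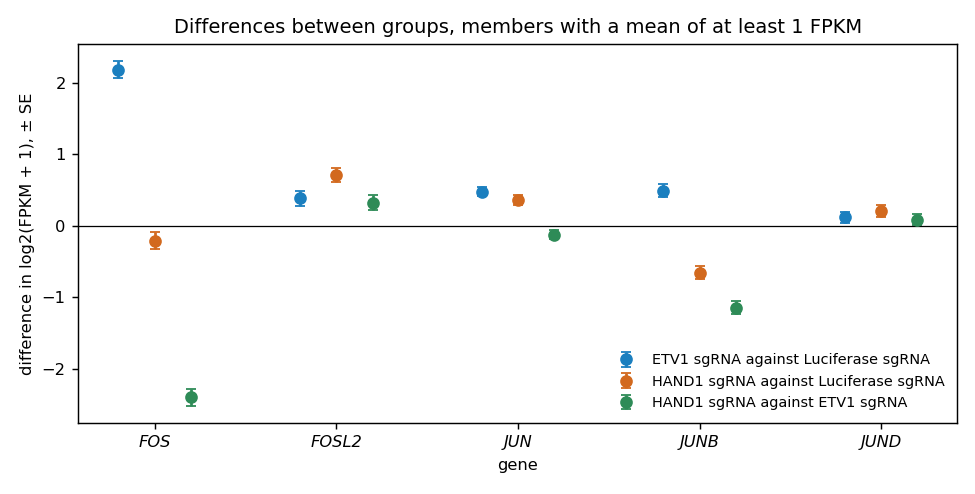
Differences in log2(FPKM + 1) between groups for the 5 members with a mean of at least 1 FPKM, with standard errors from limma. FOS with ETV1 sgRNA (2.19) stands far from the other members, and JUNB is at 0.49 with ETV1 sgRNA and -0.65 with HAND1 sgRNA.

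**Figure D3:**
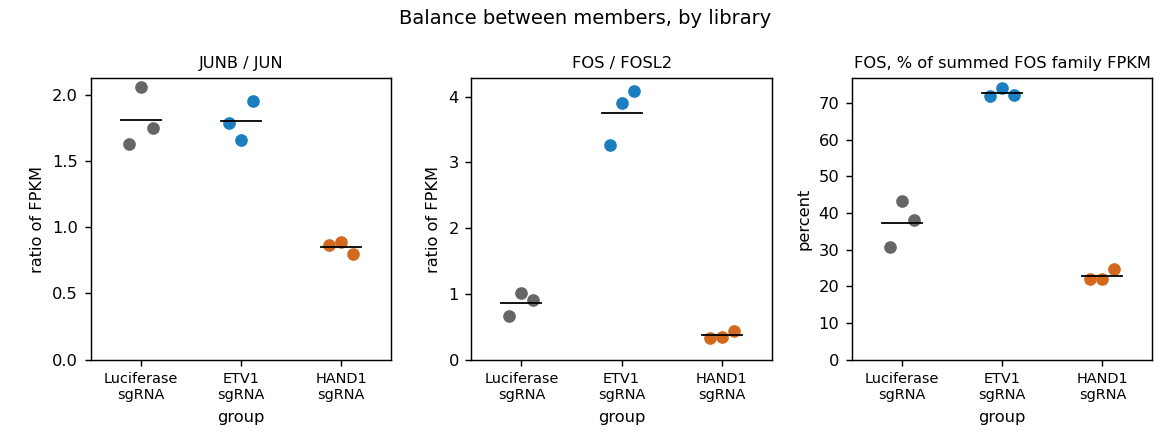
Ratio of JUNB to JUN, ratio of FOS to FOSL2, and FOS as a percentage of the summed FOS family FPKM, by library, with means as black bars. JUNB over JUN is below 1 only with HAND1 sgRNA, and FOS over FOSL2 is above 3 only with ETV1 sgRNA.

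The 5 members in the fit exceeded 1 FPKM in every library, so none entered it through 1 group alone. Of these 5, limma called 2 higher with ETV1 sgRNA than with Luciferase sgRNA (FOS and JUN), beside 0.141% of all genes tested, and 0 lower, beside 0.0617%. At an unadjusted p under 0.05 the number of members was 4, beside 930 of the 11348 genes tested. The count of 2 became 1 when ETV1 sgRNA replicate 1 or 3, any HAND1 sgRNA library, or Luciferase sgRNA replicate 1 or 2 was left out, also 1 when only the 2 groups compared were fitted, and 3 without ETV1 sgRNA replicate 2. The call lost was that of JUN, which held in 11 of 19 alternatives, while that of FOS held in all 19. With HAND1 sgRNA against the control, 2 were called higher (FOSL2 and JUN, 3.67% of all genes) and 1 lower (JUNB, 2.93%). There 4 members had an unadjusted p under 0.05, beside 2302 of the 11348 genes tested. Between the sgRNAs, 0 were called higher with HAND1 sgRNA (2.01% of all genes) and 2 lower (FOS and JUNB, 2.04%). In that comparison 3 members had an unadjusted p under 0.05 in either direction, beside 1744 of the 11348 genes tested. The 3 libraries lay all above the 3 control libraries for 4 members with ETV1 sgRNA (6.88% of all genes) and all below for 0 (6.00%). With HAND1 sgRNA they lay above for 3 (13.0%) and below for 1 (12.7%), and against ETV1 sgRNA above for 1 (10.9%) and below for 3 (11.5%). Since these contrasts chose the set, the counts describe it only, and both sgRNA groups share the same control libraries.

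The genes around AP-1 were taken from 6 lists, with 105 of 131 distinct genes in the fit. These lists were chosen with earlier results of these data known. The calls and p-values of their genes are therefore a description. With ETV1 sgRNA limma called 2 of them higher and 2 lower, with HAND1 sgRNA 10 and 8, and between the sgRNAs 5 higher and 10 lower with HAND1 sgRNA. The shares of all genes given above for each direction are the measure beside these counts. For the counts at an unadjusted p under 0.05 given below, the measure is 930 of the 11348 genes tested with ETV1 sgRNA. It is 2302 with HAND1 sgRNA and 1744 between the sgRNAs.

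Of 19 immediate early genes outside the 2 families in the fit, limma called EGR1 alone with ETV1 sgRNA, and 7 had an unadjusted p under 0.05 (median difference 0.04, against -0.01 over all genes tested). The count of 1 became 2 without Luciferase sgRNA replicate 3. EGR1 was named for its large change in earlier results of these data, so its call and values are a description. It rose from 67.3 ± 1.94 to 202 ± 16.9 FPKM (SD, n = 3, log2 1.57). With HAND1 sgRNA 4 rose and 2 fell, and 9 had an unadjusted p under 0.05 in limma (10 between the sgRNAs). EGR1 fell to 23.5 ± 3.79 FPKM with HAND1 sgRNA (-1.49). IER2, an immediate early nuclear protein, fell from 77.6 ± 13.2 to 43.5 ± 3.15 FPKM (-0.81, limma adjusted p = 0.00181). CTGF, a matricellular protein, rose from 6.57 ± 1.21 to 16.3 ± 0.896 FPKM (1.21, adjusted p = 2.12e-04) and SGK1, a kinase, from 16.9 ± 0.959 to 27.4 ± 1.24 (0.67, adjusted p = 2.58e-04). EGR1 over FOS was 27.3 to 39.4 in the control, 15.1 on average with ETV1 sgRNA and 11.8 to 15.5 with HAND1 sgRNA. The ratio was thus lower than every control library with both sgRNAs. IER3 was listed at 0 in every library.

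**Figure D4:**
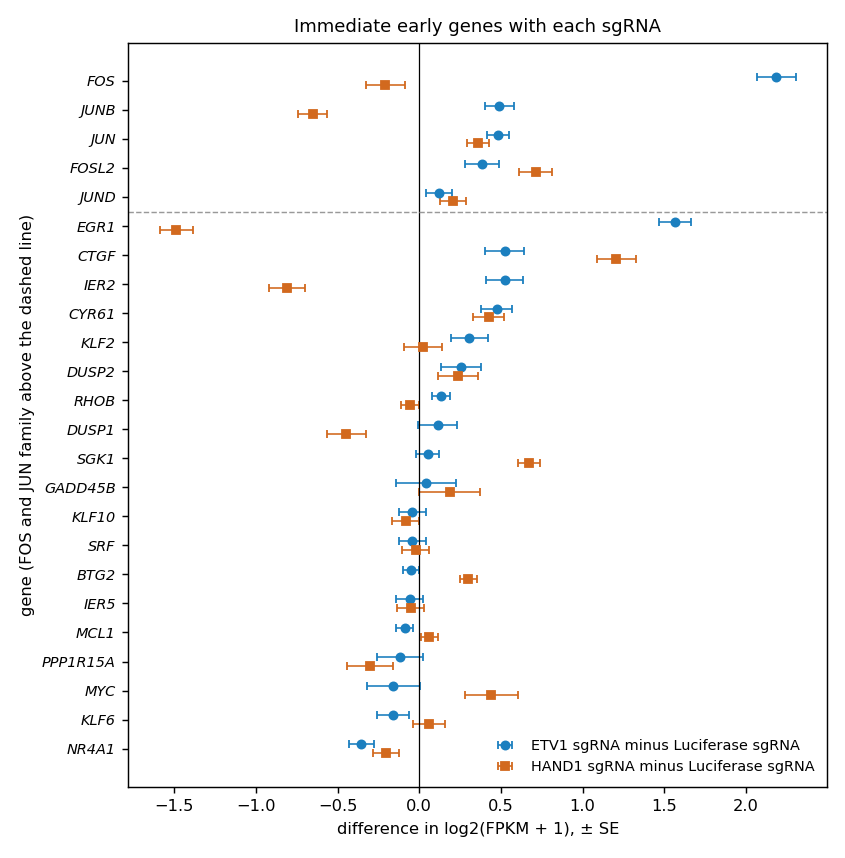
Differences from the shared Luciferase sgRNA libraries in log2(FPKM + 1), with standard errors, for 5 FOS and JUN family genes (above the dashed line) and 19 other immediate early genes. FOS and EGR1 have the largest positive values with ETV1 sgRNA, and EGR1 and IER2 the lowest with HAND1 sgRNA.

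Other leucine zipper factors that pair with or sit beside FOS and JUN (ATF, CREB, BATF, MAF, NRF and BACH genes) did not pass the test in any comparison. In limma 0 of 18 were called with either sgRNA or between them, with 0, 3 and 1 at an unadjusted p under 0.05. MAFF, a small MAF protein, was at 2.44 ± 0.867 FPKM in the control and 1.37 ± 0.375 with HAND1 sgRNA (-0.52, limma adjusted p = 0.146), and at -0.33 without Luciferase sgRNA replicate 3. MAFK was at 11.0 ± 3.26 FPKM in the control and 8.40 ± 1.498 with ETV1 sgRNA (-0.34, limma adjusted p = 0.666; -0.12 without Luciferase sgRNA replicate 3).

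Among 19 regulators of FOS and JUN transcription, 0 were called with ETV1 sgRNA, and 1 rose and 2 fell with HAND1 sgRNA. At an unadjusted p under 0.05 in limma the numbers were 2 with ETV1 sgRNA, 8 with HAND1 sgRNA and 7 between the sgRNAs. The values that follow are for HAND1 sgRNA against the control. RPS6KA3, the ERK-activated kinase RSK2, fell from 28.98 ± 1.25 to 20.3 ± 0.823 FPKM (-0.49, limma adjusted p = 6.77e-04). MAPK3, which encodes ERK1, fell from 73.2 ± 1.66 to 55.7 ± 2.52 FPKM (-0.39, limma adjusted p = 0.00120). MEF2A, a MADS-box factor, rose by 0.33 (limma adjusted p = 0.0126), a call lost without HAND1 sgRNA replicate 2 (0.0552) or 3 (0.0558).

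Among 18 kinases and ligases that act on FOS and JUN proteins, TRIB1, a scaffold for the COP1 ubiquitin ligase, fell with both sgRNAs. It was at 20.2 ± 1.49 FPKM in the control, 11.5 ± 0.119 with ETV1 sgRNA (-0.76, limma adjusted p = 8.53e-04) and 11.4 ± 0.244 with HAND1 sgRNA (-0.77, limma adjusted p = 7.25e-05). TRIB2, its relative, fell with HAND1 sgRNA from 22.8 ± 1.38 to 15.5 ± 0.646 FPKM (-0.53, limma adjusted p = 0.00128). Among 12 binders of AU-rich elements, which shorten or lengthen the life of labile mRNAs such as FOS, ZFP36L2 rose with both sgRNAs, from 46.7 ± 1.37 to 64.8 ± 2.38 FPKM with ETV1 sgRNA and 66.1 ± 3.42 with HAND1 sgRNA (0.46 and 0.49, limma adjusted p = 0.00606 and 4.64e-04). The first call was lost without ETV1 sgRNA replicate 1 (adjusted p = 0.0592).

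Textbook AP-1 target genes did not move one way. Of 20 in the fit, PTGS2 alone was called with ETV1 sgRNA and it fell, while 4 rose and 2 fell with HAND1 sgRNA. MMP1, the interstitial collagenase, was at 5.93 ± 0.338 FPKM in the control, 6.69 ± 2.07 with ETV1 sgRNA (0.12, limma adjusted p = 0.906) and 15.9 ± 1.33 with HAND1 sgRNA (1.28, limma adjusted p = 7.79e-04). PTGS2, a prostaglandin synthase, was at 19.8 ± 0.693 FPKM in the control, 14.4 ± 0.398 with ETV1 sgRNA (-0.43, limma adjusted p = 0.0200) and 11.4 ± 0.544 with HAND1 sgRNA (-0.75, limma adjusted p = 5.45e-05). Its call with ETV1 sgRNA was lost without ETV1 sgRNA replicate 1, 2 or 3 (limma adjusted p = 0.0799, 0.0846 and 0.125) or Luciferase sgRNA replicate 1 or 2 (0.0931 and 0.122). CCL2, a chemokine, fell with HAND1 sgRNA from 25.9 ± 2.60 to 16.7 ± 2.04 FPKM (-0.61, limma adjusted p = 0.00295). The list's median difference was -0.03 with ETV1 sgRNA and 0.05 with HAND1 sgRNA, against -0.01 for all genes tested in both.

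The genes nearest to FOS and JUN over the 9 libraries were taken by the root mean square difference between log2(FPKM + 1) values, each relative to the gene's own control mean. This distance vanishes for an identical pattern and grows with the size of a change. FOS had the largest positive difference of all genes tested with ETV1 sgRNA, and the set was chosen partly by it. Nothing is therefore read from the larger distances around FOS. EGR1 differed from the control by 1.57 (log2) with ETV1 sgRNA and -1.49 with HAND1 sgRNA, against 2.19 and -0.21 for FOS. For FOS the nearest gene was EGR1 at 0.83, followed by RAET1G (0.833), HIST1H3E (0.834), SRGN (0.841) and COL12A1 (0.921). Mean RAET1G was 0.939 FPKM in the control, 2.277 with ETV1 sgRNA and 0.848 with HAND1 sgRNA, and HIST1H3E 0.605, 3.039 and 0.513. SRGN was near the floor in the control (0.0709, 2.105 and 1.094 FPKM in the same order). RAET1G, HIST1H3E and SRGN thus entered the fit only through the group where FOS is high. Nothing is read from their likeness. For JUN the nearest were WISP1 (0.0806), ZFP36L2 (0.104), DKK2 (0.106), PGAP3 (0.112) and CYR61 (0.114). WISP1, a CCN family matrix protein, was at 7.16 ± 0.397 FPKM in the control, 9.62 ± 0.475 with ETV1 sgRNA and 9.25 ± 0.196 with HAND1 sgRNA, and CYR61, of the same protein family, at 7.44 ± 0.331, 10.8 ± 1.62 and 10.3 ± 0.179.

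Smooth muscle markers differed between the groups, in unlike directions. The 8 markers, 4 of them with means below 1 FPKM, summed to 145.9 to 151.6 FPKM in the control, 168.5 to 176.9 with ETV1 sgRNA and 129.1 to 135.7 with HAND1 sgRNA. The defining markers DES, MYH11 and CNN1 had means of 0.0153, 0.0814 and 0.0294 FPKM, and the sum came mainly from ACTA2 and SMTN. With ETV1 sgRNA limma called ACTA2 higher, from 52.13 to 79.13 FPKM. With HAND1 sgRNA it called SMTN lower, from 92.36 to 76.09 FPKM, and TAGLN higher, from 2.377 to 6.912 FPKM, while the median of the 4 tested markers was 0.24 (log2) although the sum was lower. Blood and endothelial markers summed to 4.92 to 6.07 FPKM in the control, 7.67 to 11.2 with ETV1 sgRNA and 5.80 to 9.38 with HAND1 sgRNA, with PTPRC at a mean of 0.0202 FPKM. CD68, the 1 tested marker of that list, was called higher with HAND1 sgRNA (4.06 FPKM in the control, 4.96 with ETV1 sgRNA, 6.13 with HAND1 sgRNA; 0.50, limma adjusted p = 0.0466). HBB, listed at 0 in the control, was at 3.59 FPKM in ETV1 sgRNA replicate 1 and at 1.11 or less in the other libraries. The part of either list in the FOS and JUN levels was not tested.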

How the data were processed

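The authors deposited 1 table of FPKM values with 1 column per library and 1 row per gene symbol. The submitters' processing notes name STAR, Cufflinks and hg19, with no version. The annotation, the filters and any scaling of libraries were not given in the sources used here. Libraries were made from polyA RNA with a kit that does not keep strand, per the labels' protocols. FPKM are not counts, so no count model was used and no read depth is known.

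Values below 1e-06 were read as 0. The fit took the 11348 of 23610 genes whose mean over all libraries reached 1 FPKM, as log2(FPKM + 1), in limma (version 3.58.1, under R 4.3.3). Group was the only term, with all 9 libraries in the fit, an intensity trend, and degrees of freedom of 6 (residual) and 4.15 (prior). P-values were two-sided, adjusted by Benjamini-Hochberg over all genes tested, and called under 0.05. The fit was tested on simulated data. The members and gene lists were chosen with earlier results of these data known. Named genes are the 7 members, the targeted genes, EGR1, up to 4 called genes of each list by adjusted p in each comparison (or 2 by p where none was called), of which not all are named, and the 5 genes nearest in pattern to FOS and to JUN. Alternatives were other pseudocounts (0.1 and 5), filters, scalings and limma settings, a replicate block and leaving out each library.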

Additional observations from a re-analysis of the deposited data

How the results depend on the processing

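The 15 differences of the 5 members in the fit kept their sign in all alternatives in which they could be computed. The pseudocount moved those of FOS and FOSL2 among others: FOS with ETV1 sgRNA was at 2.58 with a pseudocount of 0.1 and 1.36 with 5, and FOSL2 with HAND1 sgRNA at 0.89 and 0.38. Leaving out a library moved others more, such as JUND with ETV1 sgRNA (0.03 to 0.17) and JUNB with ETV1 sgRNA (0.40 to 0.59). For FOSL2 no value exists with a minimum mean of 5 FPKM. Called genes numbered 23, 749 and 460 for ETV1 sgRNA and HAND1 sgRNA against the control and HAND1 sgRNA against ETV1 sgRNA. With library weights the first 2 counts were 45 and 1312, and with only the 2 groups compared the first was 14. Leaving out a library gave 11 to 26, 433 to 730 and 271 to 583. The first count fell more than 1.5 times without ETV1 sgRNA replicate 1 or 3, HAND1 sgRNA replicate 1 or 2, or Luciferase sgRNA replicate 1 or 2 (11 to 15), the second without any HAND1 sgRNA library or Luciferase sgRNA replicate 2 (433 to 489), and the third without ETV1 sgRNA replicate 1 or 2 or any HAND1 sgRNA library (271 to 295). The listed genes called, 4, 18 and 15, were then 2 (without ETV1 sgRNA replicate 1) to 5, 14 to 19 and 10 to 17. With the replicate block the called genes were 16, 632 and 364 and the listed genes called 4, 19 and 15. The block ended the calls of PTGS2 with ETV1 sgRNA (limma adjusted p = 0.0737) and, between the sgRNAs, of MAPK9 (0.0660) and ZFP36L1 (0.0817), and no other among the genes the rule names. Same-numbered libraries did not deviate together (correlations from -0.146 to 0.138 over 9 pairs, against -0.126 to 0.196 over 18 pairs of unlike number), so the numbers were not taken to pair them. No scaling moved the median of all genes by over 0.1 (log2). FOSB and FOSL1 lie at levels where depth limits what can be read.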

Other observations

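By the distance used for FOS and JUN, the genes nearest to JUNB were FRG2, NFKBIZ (both 0.161), IER2 (0.178), KCTD12 (0.183) and TNFAIP3 (0.191). They were chosen after their values were seen, by likeness in these same groups, so no test is given. NFKBIZ, a nuclear regulator of NF-kB, was at 12.7, 11.9 and 10.9 FPKM with Luciferase sgRNA, 16.2, 14.5 and 15.9 with ETV1 sgRNA and 8.89, 7.54 and 7.66 with HAND1 sgRNA. TNFAIP3, the NF-kB feedback inhibitor A20, was at 6.16, 6.65 and 6.51 FPKM with Luciferase sgRNA, 9.16, 8.60 and 9.04 with ETV1 sgRNA and 2.72, 2.99 and 2.89 with HAND1 sgRNA. IER2 was at 67.2 to 92.4, 104 to 123 and 40.4 to 46.7 FPKM in the same order. In none of these 3 genes did any 2 groups overlap. The groups of JUNB, by likeness to which the genes were chosen, do not overlap either, so nothing is read from this. FRG2 belongs to a family of near-identical copies, and its value is uncertain. Mean FRG2 was 1.136 FPKM in the control, 1.825 with ETV1 sgRNA and 0.532 with HAND1 sgRNA. It thus entered the fit only through ETV1 sgRNA, the group where JUNB is highest.

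FOSL2 was nearest to RDH10, a retinol dehydrogenase (0.0924), ZNF613 (0.101) and BMP4, a secreted ligand (0.116), also chosen after their values were seen. BMP4 was at means of 111.9 FPKM in the control, 138.2 with ETV1 sgRNA and 190.3 with HAND1 sgRNA.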
